A study of Drosophila melanogaster with 3 samples.

Results

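The genes described here are 31 Drosophila melanogaster genes of Wnt signalling and planar cell polarity, the alignment of cells within the plane of a tissue. They were chosen as a list of names, with earlier results of these data known. All 31 were found among the 13945 protein-coding genes annotated on 6 chromosome arms. The data were chromatin immunoprecipitation followed by sequencing (ChIP-seq), which maps where a protein sits on DNA, for tap, a basic helix-loop-helix transcription factor of the neurogenin family. There was 1 group of 3 biological replicates: whole embryos of both sexes, 6 to 16 h old, from a transgenic line that stably expressed tap with GFP fused to its C-terminus, immunoprecipitated with an antibody against GFP. No other genotype or condition was part of the series, so the genes were set beside all protein-coding genes, themselves included, and the replicates beside each other. The fusion protein stands for tap here, and since embryos were taken whole, a peak does not say in which cells the protein was bound. Replicate 3 stood apart: 2912 of the 4336 peaks that passed the authors' reproducibility threshold had a summit within 200 bp among its 4336 strongest, against 3595 in replicate 1 and 3525 in replicate 2.

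In the canonical Wnt pathway a secreted Wnt ligand binds a Frizzled receptor and its co-receptor arrow, dishevelled then holds back a destruction complex of Axin, Apc and the kinase shaggy, and the spared armadillo (beta-catenin) enters the nucleus to activate genes with pangolin (TCF), legless and pygopus. Planar polarity reuses frizzled and dishevelled with the membrane and cytoplasmic proteins encoded by stan, Vang, pk and dgo, while the giant cadherins ft and ds and the kinase fj form a further polarity and growth system. In the embryo the pathway is known for patterning segments and the nervous system, and in flies tap is known to interact genetically with Wnt and polarity genes in the growth of axons.

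A peak is an interval called by the authors, and its summit is the base they give as the centre of binding. Peaks went to whichever protein-coding gene had the transcription start site (TSS) closest to the summit, and were promoter-proximal within 500 bp of that site and distal otherwise. The strongest peaks of 8 of the genes are shown first, as examples from the ligands, receptors, cytoplasmic transduction, nuclear factors and the Fat and Dachsous system. Each line gives the 201 bases centred on the summit, plus strand of dm6, read from the RefSeq copy of the assembly, with E-boxes (CANNTG, the sequence bound by basic helix-loop-helix factors) in capitals. The windows are chrX:2646308-2646508 for sgg, chr3L:19045512-19045712 for nkd, chr3L:14297583-14297783 for fz, chr2L:715481-715681 for ds, chr4:424741-424941 for lgs, chr2L:7295971-7296171 for wg, chr3L:19163022-19163222 for fz2 and chrX:18507240-18507440 for Wnt5.
sgg: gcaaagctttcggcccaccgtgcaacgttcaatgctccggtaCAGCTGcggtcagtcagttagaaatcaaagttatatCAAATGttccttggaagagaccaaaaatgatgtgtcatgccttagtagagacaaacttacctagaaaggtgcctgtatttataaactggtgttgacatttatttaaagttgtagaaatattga
nkd: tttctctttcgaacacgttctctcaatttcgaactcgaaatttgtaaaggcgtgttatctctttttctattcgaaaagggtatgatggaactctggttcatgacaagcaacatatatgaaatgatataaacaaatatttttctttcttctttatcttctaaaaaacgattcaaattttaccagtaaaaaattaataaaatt
fz: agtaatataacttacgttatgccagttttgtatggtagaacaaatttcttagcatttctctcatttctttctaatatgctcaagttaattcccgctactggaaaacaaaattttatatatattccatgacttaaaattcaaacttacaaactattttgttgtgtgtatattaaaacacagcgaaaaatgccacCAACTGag
ds: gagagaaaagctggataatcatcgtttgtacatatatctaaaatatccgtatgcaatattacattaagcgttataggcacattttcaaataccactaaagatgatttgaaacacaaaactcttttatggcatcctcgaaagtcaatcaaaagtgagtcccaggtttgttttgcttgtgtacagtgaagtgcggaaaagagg
lgs: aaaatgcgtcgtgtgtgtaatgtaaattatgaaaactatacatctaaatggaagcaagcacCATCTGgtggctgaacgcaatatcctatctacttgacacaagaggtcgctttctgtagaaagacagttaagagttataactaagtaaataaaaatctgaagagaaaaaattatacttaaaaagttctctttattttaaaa
wg: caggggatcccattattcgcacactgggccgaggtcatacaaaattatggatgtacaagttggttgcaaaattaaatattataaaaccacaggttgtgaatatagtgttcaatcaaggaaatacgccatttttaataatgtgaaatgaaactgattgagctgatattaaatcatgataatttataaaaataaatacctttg
fz2: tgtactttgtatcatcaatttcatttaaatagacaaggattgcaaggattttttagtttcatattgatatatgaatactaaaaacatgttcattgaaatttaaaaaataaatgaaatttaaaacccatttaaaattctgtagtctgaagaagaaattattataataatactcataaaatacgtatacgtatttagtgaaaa
Wnt5: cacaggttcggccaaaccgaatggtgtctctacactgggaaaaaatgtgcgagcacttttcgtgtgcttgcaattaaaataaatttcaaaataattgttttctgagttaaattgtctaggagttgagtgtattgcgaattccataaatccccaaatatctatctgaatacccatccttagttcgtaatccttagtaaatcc
Of the 8 windows, only those of sgg, fz and lgs hold an E-box, while the window of the pk peak left out holds 3. That of sgg holds CAGCTG and CAAATG, starting 58 and 22 bases before the summit, fz holds CAACTG near the edge of the window, 93 bases after the summit, and lgs holds CATCTG, 39 bases before it. The GC content of the 8 windows ranged between 20.9% at fz2 and 39.3% at sgg, and the longest unbroken run of A and T reached 20 bases at wg, 18 at nkd and 17 at both fz and fz2. The core CTTTGA of the sites bound by pangolin, searched on both strands, is present in the sgg window alone, as its reverse complement TCAAAG, 34 bases before the summit.

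Wnt and polarity genes carried tap peaks mostly away from their promoters. Of the 31 genes, 17 had at least 1 of the 4336 thresholded peaks (54.8%), against 18.9% of all protein-coding genes. A distal thresholded peak was found at 16 of the 31 (51.6%), against 11.2% of all genes, and a promoter-proximal one at 5 of the 31 (16.1%), against 10.7%. With peaks kept only where they were among the strongest of both remaining replicates, 10, 11 and 13 genes had one without replicate 1, 2 and 3, against 12.1%, 12.4% and 14.8% of all genes. Distal peaks were at the same counts of 10, 11 and 13 genes, against 7.30%, 7.41% and 8.66% of all genes, and promoter-proximal ones at 2 whichever replicate was left out, against 5.95%, 6.26% and 7.85%, which is near the share over all genes. Among the 17 genes, 12 had distal peaks alone, 4 (fz2, sgg, nkd and stan) had both kinds, and pan had only a promoter peak. In all 2641 genes with a peak, 43.4% had distal peaks alone, 15.8% both kinds and 40.8% promoter peaks alone. There were 9 genes with 2 or more thresholded peaks (29.0%), against 6.03% of all genes. The 17 genes held 32 thresholded peaks, of which 27 were distal (84.4%), against 62.2% of all thresholded peaks. Of the 32, 5 lay over 500 bp but within 1000 bp of the TSS, and so would be promoter-proximal with the wider limit. In the 4336 strongest peaks of each replicate, the distal share was 79.2% ± 7.24 for these genes and 60.3% ± 1.12 for all peaks (SD, n = 3 each).

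**Figure D1:**
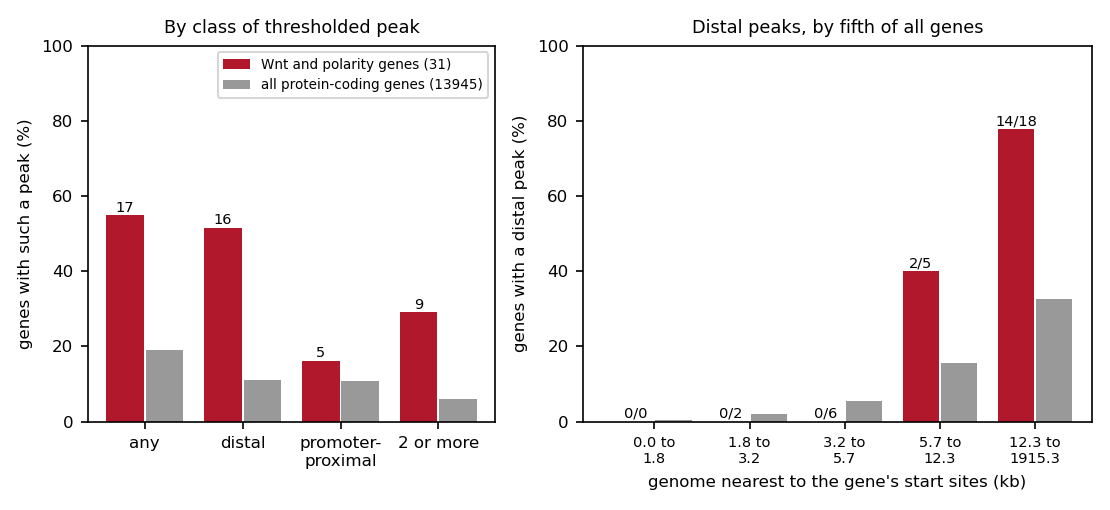
The left panel gives the percentage of genes with a thresholded peak of each class, and the right panel the percentage with a distal peak within 5 equal classes of all genes, ordered by how much of the genome lies closest to the start sites of a gene; numbers over the bars count Wnt and polarity genes. Bars for the 31 Wnt and polarity genes (red) and for all 13945 protein-coding genes (grey) stand at 51.6% and 11.2% for distal peaks in the left panel, and at 77.8% and 32.7% for the longest class in the right panel.

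The peaks of these genes were weaker than the typical thresholded peak, though within its range. Their median signal, the authors' own value per peak, was 204.0 in the pooled list and their median rank 2906.5 of 4336, against a signal of 247.9 and a rank of 2168.5 for all thresholded peaks. Distal peaks had a median signal of 219.1 and promoter-proximal ones of 170.0 (27 and 5 peaks), against 240.7 and 259.6 over all thresholded peaks of those classes. The median distance from summit to TSS was 5102 bp for the distal peaks of these genes, against 3425.5 bp for all distal peaks, and 8 of the 32 peaks lay more than 10 kb from the TSS, against 12.4% of all thresholded peaks.

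Wnt and polarity genes sit in longer stretches of the genome than most, and a gene with more sequence around it has more room for distal peaks. The genome nearest to the TSSs of a gene had a median length of 16.4 kb for the 31 genes, against 4.25 kb for all genes. Of the 31, 18 were in the longest of 5 equal classes of all genes by this measure (12.3 kb and more), and 14 of those 18 had a distal peak, against 32.7% of all 2789 genes of that class. Any thresholded peak was found at 15 of the 18, against 38.5%, and the other 3 were Wnt2, Wnt10 and fz3. In the next class (5.74 to 12.3 kb) a distal peak was found at 2 of 5 (Wnt5 and Notum), against 15.6%, and any peak at the same 2, against 23.3%. Of the shorter stretches, 0 of 2 genes in the class of 1.80 to 3.21 kb had a thresholded peak, against 11.1% of all genes of that class, and 0 of 6 in that of 3.21 to 5.74 kb, against 13.9%. With so few genes, 0 is near those shares. The 18 genes had a median of 26.5 kb, against 21.7 kb for all genes of the longest class, and among the 1395 genes with the longest stretches (21.7 kb and more) 12 of 14 had a distal peak, against 38.6%. Per unit of sequence the longest class gave 49.3 thresholded peaks per Mb for the 18 genes and 26.7 per Mb for all genes of the class. These densities are not matched for length, since stretches reached 93.0 kb among the 18 genes and 1915 kb in the whole class. How far length accounts for the remaining difference was not tested.

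Of the distal peaks, 15 of 27 lay in an intron of the gene itself (55.6%), against 51.7% of all distal peaks, 10 lay in intergenic sequence (37.0%), against 28.7%, and 1, upstream of Wnt5, in an intron of another protein-coding gene (3.70%), against 12.2%. No summit of the 32 lay in a coding exon or a 3' UTR, where only 0.323% and 1.38% of all thresholded summits lay. By strand, 16 of the 32 summits lay upstream of the nearest TSS of their gene, against 56.3% of all thresholded summits.

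Among the 7 ligand genes, wg, Wnt4, Wnt5 and Wnt6 had thresholded peaks, all of them distal. The gene wg (FBgn0284084), which encodes wingless, the main ligand of the canonical pathway, had its stronger peak 11088 bp upstream of the TSS, in intergenic sequence (2L, 7295989 to 7296170), and its signal was 358.5. This is the wg window shown above, with no E-box. It ranked 1193, 1023 and 3172 in replicates 1, 2 and 3, among the 4336 strongest of each. A weaker neighbour, 933 bp further out, had a signal of 181.2 and ranked 6010, 4036 and 2649. At the wg promoter itself there was only a peak below the threshold, 165 bp from the TSS at rank 6150 of the pooled list. Wnt5, a ligand for the receptor drl in axon guidance, had 1 peak, 1935 bp upstream of its TSS in an intron of Ggt-1, with a signal of 284.9 and ranks of 2161, 2389 and 1420. Wnt6 had 1 peak, 703 bp upstream of its TSS (signal 158.0), which was uneven, at ranks 5391, 3571 and 11746.

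The 4 genes Wnt4, wg, Wnt6 and Wnt10 lie next to each other on 2L within 122.1 kb. Wnt4 had 1 assigned peak, 6653 bp inside the gene, with a signal of 187.6 and ranks of 3087, 3565 and 11407. A further 3 thresholded summits lay in introns of Wnt4 but nearest to the TSS of CG31909, a small gene nested in it, so 4 summits fell within the Wnt4 transcription unit. Their signals were 203.9, 191.5 and 180.6, and the first was among the 4336 strongest of all 3 replicates, at ranks 3913, 3570 and 2868. Weaker peaks were dense over the same stretch, with 15 pooled peaks assigned to Wnt4, 11 to wg and 11 to Wnt6. Wnt10, at the other end, had no peak of the pooled list at all, and its only peak in a replicate ranked 27597 in replicate 2. The ligand genes outside this stretch without a thresholded peak were Wnt2, whose only peak ranked 15809 in replicate 3, and wntD, with none in any list.

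**Figure D2:**
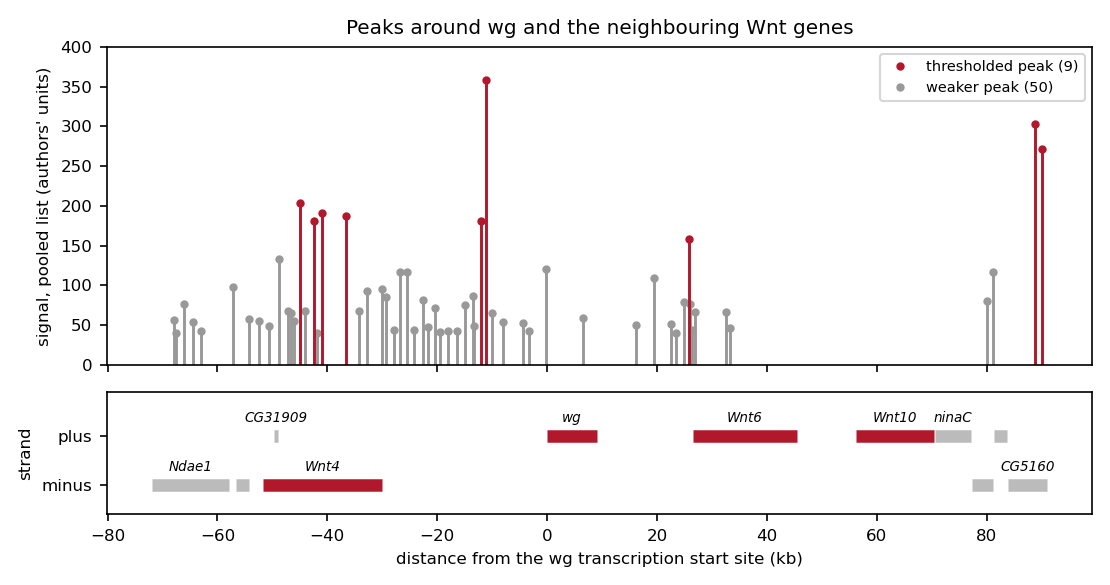
Signal of each peak of the pooled list against distance from the wg TSS in kb, with thresholded peaks in red and weaker ones in grey, above a map of protein-coding genes by strand with the Wnt genes in red. The stronger wg peak stands 11.1 kb upstream of the wg TSS, a group of 4 thresholded peaks lies within Wnt4, and no peak falls on Wnt10.

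Of the genes for ligand release and removal, Notum alone had a thresholded peak. It encodes a secreted enzyme that inactivates Wnt ligands and is itself a target of the pathway. The peak lay 2798 bp into the gene, in an intron, with a signal of 174.6, and ranked 6849, 4681 and 2698 in replicates 1, 2 and 3, so it was among the 4336 strongest of replicate 3 alone. The other two, por, which encodes the acyltransferase that modifies Wnt proteins, and wls, which carries them to the cell surface, had no peak of the pooled list. For wls a single peak ranked 10101 in replicate 3.

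Receptor genes held the largest number of peaks of any of the 7 roles, 8 peaks at 3 of 5 genes. That order takes no account of length. The genome nearest to the TSSs of fz and fz2, which held most of the 8, spanned 46.3 and 93.0 kb. Per 100 kb they had 6.48 and 4.30 thresholded peaks. The gene fz (FBgn0001085), the receptor shared by canonical and polarity signalling, had 3. The strongest, 23340 bp into the gene in an intron (3L, 14297551 to 14297776), reached a signal of 502.5 and ranks of 700, 730 and 1107. A second lay 1765 bp upstream of the TSS, with a signal of 476.1 and ranks of 584, 832 and 1805. Both were among the 4336 strongest in every replicate. The third, 2149 bp from the first, had a signal of 157.9 and ranks of 5166, 10266 and 3095.

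The assignment to the nearest TSS left out most of the peaks inside fz. Its transcription unit of 94.3 kb held 10 thresholded summits, of which 2 were assigned to fz and the other 8 to CG13482, nested in it, or CG13481, which lies just beyond its end. All 8 lay in introns of fz. The strongest of them (3L, 14303907 to 14304188), 29713 bp from the fz TSS, reached a signal of 879.7 (rank 226) and ranked 283, 297 and 179, with a mean of 253 ± 64.5 (SD, n = 3). It was the strongest thresholded peak within the body of fz, above those counted for the gene. Across the 31 genes, 32 thresholded summits lay within gene bodies, of which 18 were assigned to the gene itself and 14 to another, at fz, Wnt4, arr and nkd.

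The gene fz2, which encodes a high-affinity wingless receptor, had 4 thresholded peaks spread over 53.5 kb. The strongest, in an intron 7526 bp downstream of an internal TSS (signal 329.3), is the window shown above with the lowest GC content, and it was uneven, at ranks 1158, 1274 and 9474. A second intronic peak, 18798 bp downstream of the first TSS, was more even, at ranks 1982, 3246 and 1666 (signal 259.2). A pair at the internal promoter had summits 32 bp inside and 775 bp upstream of that TSS, with signals of 170.0 and 163.0. The nearer, in the 5' UTR, ranked 2038, 12630 and 4569. In the pooled list fz2 had 72 peaks, and 1 other gene had more. The gene fz4 had 1 peak, 7676 bp upstream in intergenic sequence, with a signal of 256.5 and ranks of 2356, 3275 and 2032. For fz3, a target of the pathway, the best pooled peak was at its promoter but below the threshold, with rank 5636 and 28 bp between summit and TSS. Replicate 3 alone held a peak of fz3 among its strongest, at rank 2949. The co-receptor gene arr had no thresholded peak assigned, its best pooled peak having rank 5261, although 2 thresholded summits in its introns were assigned to the nested gene CG43192 (signals 219.1 and 171.4).

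Genes of cytoplasmic transduction gave the strongest peaks of the list, at sgg and nkd, and none at 4 of the 6. The kinase gene sgg (FBgn0003371) had a peak 229 bp upstream of one of its 11 TSSs, in an intron of the gene (X, 2646241 to 2646591). Its signal was 903.4, and it ranked 271, 196 and 243, a mean of 237 ± 37.9 (SD, n = 3), the smallest SD among the 30 peaks matched in all replicates. This peak was also the strongest of the 32, and ranks near the top leave less room for spread. Its window, shown above, holds 2 E-boxes. Another sgg peak lay 988 bp inside the same TSS as the first, with a signal of 219.1. The remaining sgg peak lay 5102 bp upstream of a different TSS of the gene, with a signal of 188.9. The gene nkd (FBgn0002945), which encodes naked cuticle, an inhibitor of dishevelled that the pathway itself induces, had 4. The promoter peak, 163 bp upstream of the TSS (3L, 19045516 to 19045755), reached a signal of 596.0 and ranks of 738, 364 and 891, and its window held no E-box. An intronic peak 2774 bp inside the gene had a signal of 477.6 and ranks of 633, 814 and 1821, and another 12152 bp inside had 274.3 and ranks of 1847, 2082 and 2549. The weakest, 789 bp from the second, had a signal of 154.6 and ranks of 23080, 3434 and 9545, and so was strong in replicate 2 alone. Thus 3 of the 4 nkd peaks and 2 of the 3 sgg peaks were among the strongest of all 3 replicates.

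The other transduction genes, Apc, Axn, arm and dsh, had no thresholded peak. Apc just missed it, with its best peak at rank 4469 of the pooled list, 13 bp from a TSS (signal 150.2). In the replicates its best peaks ranked 10767, 7113 and 2468 in replicates 1, 2 and 3. No pooled peak was assigned to Axn, arm or dsh. In single replicates the best ranks were 4045 for Axn in replicate 3, 4129 for arm in replicate 2 and 20196 for dsh in replicate 3.

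Of the nuclear factors, lgs and pan had a peak each and pygo had none in any list. Both genes with a peak lie on the small chromosome 4. The peak assigned to lgs, which encodes the adaptor between armadillo and pygopus, lay 19070 bp from the TSS in intergenic sequence beyond the gene, with a signal of 427.2. It ranked 887 and 1307 in replicates 1 and 2 and had no summit within 200 bp in the list of replicate 3. The TSS of a noncoding RNA gene, lncRNA:CR43437, was nearer to it, at 1226 bp. The peak of pan, the TCF gene, lay 101 bp inside a promoter in the 5' UTR and was among the last to pass the threshold, with a signal of 153.5, rank 4333, and ranks of 7264, 7088 and 2671.

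Among the core polarity genes pk and stan had 2 peaks each, and Vang and dgo had no peak of the pooled list. The gene pk, which encodes the LIM-domain protein prickle, had an intronic peak 2610 bp upstream of an internal TSS, with a signal of 325.9 and ranks of 1555, 1335 and 2743, among the strongest of all replicates. Its other peak, 669 bp upstream of the same TSS, had a signal of 164.6 and ranks of 4640, 11232 and 1761. Both peaks of stan, the polarity cadherin gene also called flamingo, were below the stronger pk peak and differed in rank between replicates. The intronic one ranked 1739, 6361 and 13649 (signal 182.4) and the promoter one, 2 bp from the TSS, ranked 4868, 7742 and 3208 (signal 154.0). The gene dgo had a single peak in any replicate, at rank 15976 in replicate 2, and Vang had none.

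All 3 genes of the Fat and Dachsous system had distal peaks and no promoter peak. The strongest was at ds, 598 bp upstream of its TSS (2L, 715475 to 715650), with a signal of 389.8 and ranks of 1257, 1624 and 723. This peak lay close to the 500 bp limit and would be promoter-proximal with a limit of 1000 bp. The gene ft had a pair of peaks 1276 and 2564 bp upstream, with signals of 235.4 and 165.7. The nearer ranked 1828, 3663 and 3183, and the further one ranked 6126 and 2011 in replicates 1 and 2 and was not matched in replicate 3. For fj, a kinase that acts on both cadherins in the Golgi, 2 peaks lay 9398 and 13573 bp beyond the TSS and outside the gene, with signals of 177.3 and 180.7. The further one fell in an exon of lncRNA:CR44420, 429 bp from that gene's TSS.

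**Figure D3:**
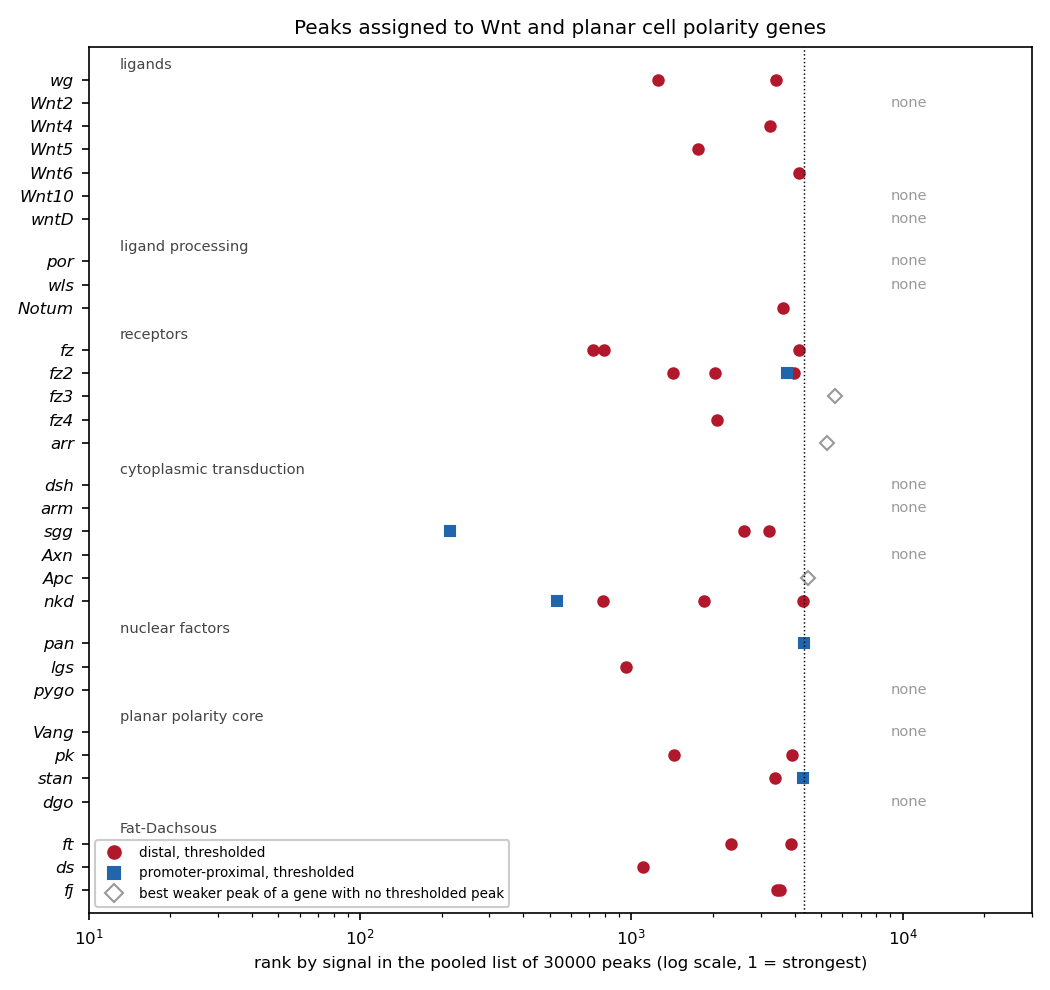
Rank by signal in the pooled list (log axis, 1 is the strongest) of every thresholded peak assigned to the 31 genes, grouped by role, with distal peaks as red circles, promoter-proximal ones as blue squares, and the best weaker peak of a gene without a thresholded one as a grey diamond; the dotted line is rank 4336 and "none" marks a gene with no pooled peak. The peaks of sgg and nkd stand furthest to the left, at ranks 215 and 532, and 11 genes have no peak.

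In the pooled list of 30000 peaks, which holds the thresholded set and the weaker peaks, 20 of the 31 genes had a peak (64.5%), against 48.2% of all genes, so the distance from all genes was smaller there. The 11 genes with no pooled peak were Wnt2, Wnt10, wntD, por, wls, dsh, arm, Axn, pygo, Vang and dgo. With a gene counted when its body or the 1000 bp beside it held a thresholded summit, 13 of the 31 did (41.9%), against 22.7% of all genes. That rule added arr and Axn, and dropped wg, Wnt5, fz4, lgs, ft and fj, whose peaks lie outside the gene. The summit at Axn was that of a promoter peak of its neighbour Mgat2, 113 bp from the Mgat2 TSS.

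Replicate 3 differed from the other two for these genes in the count of genes, and not in the measure that set it apart over all thresholded peaks. By that measure, 22, 24 and 22 of the 32 peaks had a summit within 200 bp among the strongest of replicates 1, 2 and 3. Among the 4336 strongest peaks of replicate 3, 20 of the 31 genes had one, against 19.0% of all genes. In replicates 1 and 2 the counts were 14 (all genes 19.2%) and 16 (all genes 19.5%), a mean of 16.7 ± 3.06 (SD, n = 3). A distal peak was found at 14, 15 and 15 of the 31 in replicates 1, 2 and 3, against 10.7%, 10.9% and 11.0% of all genes. A promoter-proximal one was found at 5, 4 and 10, against 11.5%, 11.4% and 11.0% of all genes, so the share over all genes was not higher in replicate 3. The count of genes with a distal peak, 14.7 ± 0.577, had a smaller SD than that with a promoter peak, 6.33 ± 3.21 (SD, n = 3 each). There were 12 genes with a peak among the strongest of every replicate, wg, Wnt4, Wnt5, fz, fz2, fz4, sgg, nkd, pk, ft, ds and fj, all of which had a thresholded peak. For this count different peaks of a gene could serve in different replicates, and no share of all genes is given. Another 5, Apc, Axn, arm, arr and fz3, had a strong peak in some replicate and no thresholded one. Peak by peak, 14 of the 32 thresholded peaks (43.8%) had a summit within 200 bp among the strongest of all 3 replicates, against 49.4% of all thresholded peaks. A further 8 had one in 2 replicates and 10 in 1.

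**Figure D4:**
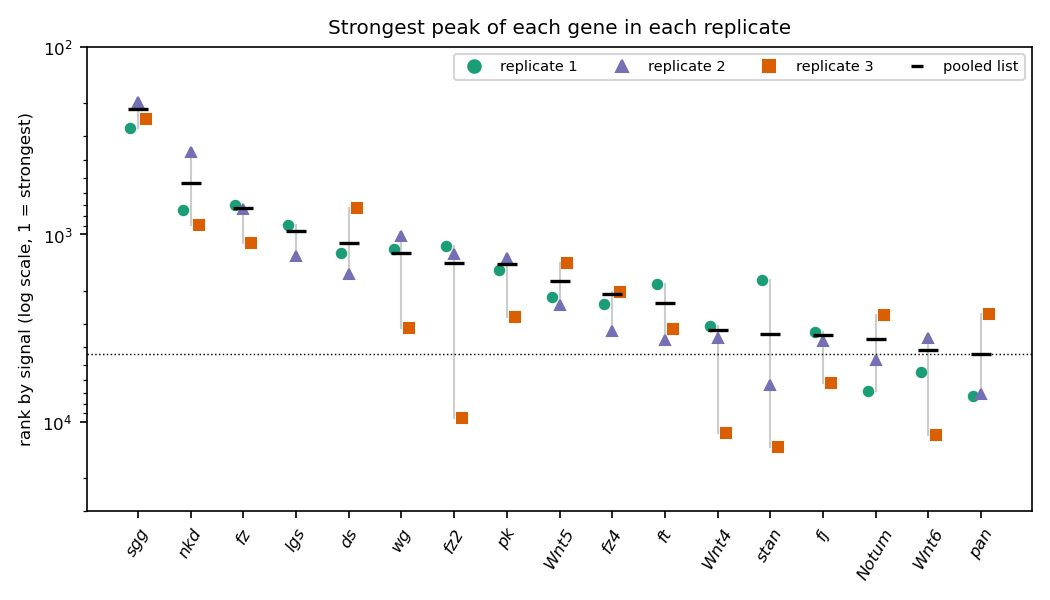
Rank by signal (log axis, strongest at the top) of the strongest peak of each of the 17 genes in replicates 1, 2 and 3, with the pooled rank as a black bar and the dotted line at rank 4336. The sgg peak keeps ranks of 196 to 271, while those of fz2, Wnt4, stan and Wnt6 drop to between 9474 and 13649 in replicate 3 and lgs has no point there.

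The summits of these genes were poor in G and C. Mean GC content in the 101 bp centred on the 32 summits was 33.0%, and the windows centred 500 bp to each side had 42.0%, against 32.4% and 42.6% for all thresholded peaks. The 27 distal summits had 31.5% and their flanks 43.3%, and 22 of the 27 were below their flanks. The 5 promoter-proximal summits had 41.2% and their flanks 35.0%, and 1 of the 5 was below its flanks, whereas all 1640 promoter-proximal thresholded summits had 33.1% and their flanks 44.4%. In the strongest peaks of each replicate, the summits of the 31 genes differed from their flanks by -8.80, -12.7 and -3.25 percentage points in replicates 1, 2 and 3. The lowest of all 32 was the nkd summit 12152 bp into the gene, at 16.8%, and the highest the fz2 summit 775 bp upstream of the TSS, at 56.4%.

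**Figure D5:**
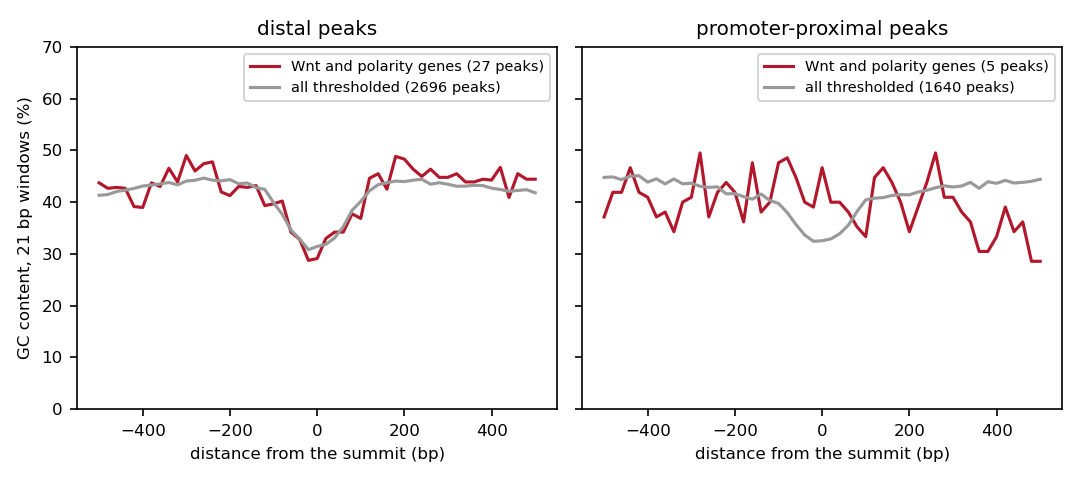
Mean GC content in 21 bp windows against distance from the summit, for distal peaks on the left and promoter-proximal peaks on the right, with the Wnt and polarity genes in red and all thresholded peaks in grey. Both distal curves dip at the summit, with means of 31.5% for 27 peaks and 32.0% for 2696 in the central 101 bp, and the curve of the 5 promoter peaks has no dip.

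E-boxes were about as common at these summits as beside them. The comparison is not matched for base composition, since mean GC content was 33.0% at the summits and 42.0% in the flanks. CANNTG was found within 100 bp of 22 of the 32 summits (68.8%) and in 64.1% of the windows centred 500 bp away, against 59.8% and 65.3% for all thresholded peaks. In the strongest peaks of each replicate its share at the 31 genes was 58.1% ± 7.14 (SD, n = 3). Single forms rested on few peaks. CAAATG was at 8 of 32 summits, the same 25% as in their flanks, against 18.8% of all thresholded summits. CAACTG was at 6 (18.8%, flanks 6.25%), against 10.2% of all summits, CAGATG at 5 (15.6%, flanks 6.25%), against 7.31%, and CAATTG at 4 (12.5%, flanks 7.81%), against 8.46%. CAGCTG was at 3 (9.38%, flanks 12.5%), against 7.24%, and CATATG at 2 (6.25%, flanks 3.13%), against 8.35%. The remaining forms were all below their share of all summits. CAAGTG was at 3 (9.38%, flanks 7.81%), against 11.2%, and CACATG at 2 (6.25%, flanks 12.5%), against 8.10%. CACCTG was at 1 (3.13%, flanks 6.25%), against 4.08%, and CACGTG at none (flanks 6.25%), against 1.85%. The core CTTTGA was at 3 of 32 (9.38%), against 12.0% of all thresholded summits, and 12.5% of the flanks of these 32. It lay at sgg and in 1 peak each of fj and pk. The longer form CTTTGAT was at 2 of 32 (6.25%), against 3.34%. GAGAG was at 7 (21.9%, all peaks 23.2%), TTTATT at 16 of 32 (all peaks 50.9%), and TATCGATA, a promoter element, at none, against 1.96% of all summits. All motifs were searched on both strands, CTTTGAT is counted within CTTTGA, and a match describes letters only.

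The peaks were also split by whether they were among the 4336 strongest of all 3 replicates, after the data were seen and with no test. Such a split sorts by strength as well as by evenness. Of the 14 peaks found among the strongest of all replicates, 6 had an E-box (42.9%), and of the other 18 peaks 16 had one (88.9%), where the same split of all thresholded peaks gave 60.4% and 59.2%. GC content averaged 28.5% in the 14 and 36.5% in the 18, against 32.0% and 32.8% for all thresholded peaks, so base composition moved with this split and its part was not tested. The median signals were 342.2 and 172.3, against 376.0 and 189.5 for all thresholded peaks. Strength thus moved with this split too, and its part was not tested.

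Other genes of the pathway were also listed with earlier results of these data known. Of the 44 listed, 43 could be matched, and 19 of those had thresholded peaks, against 18.9% of all genes. Distal ones were at 13, against 11.2%, and promoter-proximal ones at 11, against 10.7%. The 6 with the strongest peaks were gish, a casein kinase gene with a promoter peak (signal 2321, ranks 15, 26 and 25 in replicates 1, 2 and 3), osa, a chromatin remodelling subunit gene that restrains wingless targets, with a distal peak (1271, ranks 106, 123 and 88), bbg, a PDZ protein gene, with a promoter peak (815.9), hth, a homeobox gene (618.2), gro, the corepressor gene (541.5), and dco, the kinase gene also called discs overgrown (498.3). By role, kinases and destruction complex genes had a peak at 5 of 9, nuclear cofactors at 3 of 5, extracellular and secretion genes at 2 of 6, alternative Wnt receptors at 3 of 6 (drl, dnt and otk, all distal), polarity effectors at 4 of 11, and target genes of wingless at 2 of 6. The target gene hth had 9 distal peaks and dpp had 2, and no thresholded peak was assigned to en, Dll, vg or sens. The genome nearest to the TSSs of hth spanned 133877 bp and that of dpp 47119.5 bp. For en, Dll, vg and sens it spanned 53627, 19834.5, 17996.5 and 11223.5 bp. The counts and shares of these other genes are not matched for length, and its part was not tested.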

How the data were processed

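Peak lists of 3 replicates, 1 of the pooled replicates (30000 peaks each) and 1 thresholded set of 4336 were used, in dm6 per the labels. Per the deposited notes, peaks were called on each replicate or on the pool with a control alignment shared by the replicates, and the set was thresholded by the irreproducible discovery rate. It equals the 4336 strongest pooled peaks. For caller, aligner and threshold, no source used here gives a name or value. Control libraries and coverage tracks were not analysed here. The deposited signal of a peak and the −log10 of its q-value (by the file format) are the authors' values, on a scale that differs between lists, so ranks within a list were compared and no read depth is known. The age of 6 to 16 h comes from the source label.

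Genes and TSSs were from Ensembl release 115 (FlyBase 6.54), sequence from the RefSeq copy of the assembly, and no peak ended beyond its arm. Python 3.11.15, numpy 2.4.6 and pandas 2.3.3 were used. A TSS tie went to the first gene ID. Summits of 2 lists were matched within 200 bp, in the 4336 strongest peaks of each replicate unless the full list is named. GC content was taken in 101 bp and motifs in 201 bp about summits and points 500 bp to each side. Assignment and matching were tested on simulated summits. With 1 group and 1 value per peak, no test was made, and shares stand beside those of all genes or peaks, which include the genes described. The gene list, the 43 other pathway genes and the printed windows were chosen with earlier results of these data known. All 31 genes are named, and of the other genes the 6 with the strongest peaks. Of 3 other symbols not in the annotation, Hipk and Cby were matched by a RefSeq synonym and d was left out as ambiguous.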

Additional observations from a re-analysis of the deposited data

How the results depend on the processing

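No paired analysis was possible because there was 1 group. The count of 17 genes with a thresholded peak was 12 to 20 under other rules of assignment and with all pooled peaks, and 10 with the stronger part of the set (2168 peaks by signal, all genes 11.4%) or with that by −log10 q. Without replicate 1, 2 or 3, keeping peaks among the strongest of both others, it was 10 to 13 (all genes 12.1% to 14.8%), with the lowest count without replicate 1. Promoter-proximal peaks were at 8 genes with a window of 1000 bp and at 2 in the stronger part. They were at 2 whichever replicate was left out (all genes 5.95% to 7.85%). Distal peaks were at 10 genes within 5000 bp of a TSS (all genes 8.40%) and at 9 in the stronger part. Without each replicate they were at 10 to 13 (all genes 7.30% to 8.66%). The distal share was 68.8% with a window of 1000 bp, and 86.7% to 89.5% without each replicate. No share of all peaks is given under these rules. The 62.2% of all peaks belongs to the window of 500 bp and cannot be set beside 68.8%. The mean count per replicate was 8.33 with the 2000 strongest peaks and 15 to 18 without each replicate. A count with no share of all genes beside it does not set these genes apart from all genes. Of the 32 peaks, 30 were matched in the full replicate lists, and 15 to 19 when 1 replicate was left out. E-boxes were at 46.9% and 84.4% of summits within 50 and 150 bp, and at 40% to 52.6% without each replicate. GC content was 28.8% to 30.4% without each replicate. Of 66 alternatives 33 moved a value beyond the spread or limit set for it, and those not printed here concern single motifs. Read depth is unknown, so absence of a peak is not absence of binding.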
